A study of Arabidopsis thaliana with 6 samples.

Results

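Class III peroxidases are secreted haem enzymes of plants. In the cell wall they use hydrogen peroxide to couple monolignols into lignin and to cross-link wall proteins and phenolics, and some members also produce reactive oxygen species that loosen the wall or act in defence. The family is large, many of its genes lie side by side on the chromosomes, and it is best known in roots, vascular tissue and wounded or infected organs.

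Transcript levels of this family were compared between callus and leaf of Arabidopsis thaliana on 6 Affymetrix arrays. Of 60 peroxidase loci searched for, 46 had a probe set that the array annotation assigns to 1 gene, and these 46 are described here among 13356 genes tested. Another 7 loci fell in 4 probe sets shared by several genes, and 7 had no probe set listed for them, so these 14 loci were not analysed here. Each of the 46 genes had 1 probe set.

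The callus group comprised 3 arrays of wild-type Col-0 calli, harvested after leaf blades of 20-day-old plants had been cultured for 20 days on callus-inducing medium (CIM), which contains auxin, cytokinin and glucose. The leaf group comprised 3 arrays of leaves taken from Col-0 seedlings aged 20 days. All plants carried the wild-type genotype, and the labels give 16 h of light, 8 h of dark and 21°C for both groups, whereas the study's methods place explants on CIM in darkness. Culture, hormones, sugar, wounding, age of the tissue and possibly light therefore differed together and cannot be told apart. The methods call the 3 arrays of a group independent experiments, but the labels do not say whether separate cultures or plants were used, so p-values measure the spread between these arrays.

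The arrays matched their labels at the markers that were measured. All 5 measured genes of the leaf mesophyll list were lower in callus (log2 fold changes of -8.77 to -6.84), and both measured genes of the callus list, BBM and LBD16, were higher (3.74 and 2.79). The defining markers of xylem and endodermis on the lists, 6 and 7 genes, were not analysed here. Both measured root hair genes, EXPA7 and EXPA18, were not called (0.55 and 0.33). Pearson correlations across genes were at least 0.9967 among callus arrays and 0.9949 among leaf arrays. The actin 3' minus 5' difference, which tracks RNA integrity, was 1.48 to 1.59 on the callus arrays and 1.57 to 2.11 on the leaf arrays, and its part in the results was not tested. In such bulk tissue, more cells of a type and more RNA per cell cannot be told apart.

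Peroxidase genes were mostly higher in callus or showed no called change. A gene was called at a limma adjusted p under 0.05 and a change of more than 2-fold. By this rule 17 of 46 peroxidase genes (37.0%) rose, 4 (8.70%) fell and 25 (54.3%) were not called. Among all genes tested, 16.4% rose and 13.2% fell, so that 45.7% of the peroxidase genes were called, against 29.6% of all genes. The median log2 fold change of the 46 was 0.70, against 0.01 for all genes. At a 4-fold threshold there were 10 that rose (21.7%, against 6.28% of all genes) and 1 that fell (2.17%, against 7.16%), and 4 rose more than 16-fold (8.70%, against 0.883%). The 3 callus arrays lay wholly above the 3 leaf arrays for 28 peroxidase genes (60.9%, against 36.7% of all genes) and wholly below them for 8 (17.4%, against 29.4%). Together these were 78.3% of the family, against 66.0% of all genes. Replicates were close, with a median SD of 0.108 in callus and 0.0965 in leaf over the 46 genes.

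**Figure D1:**
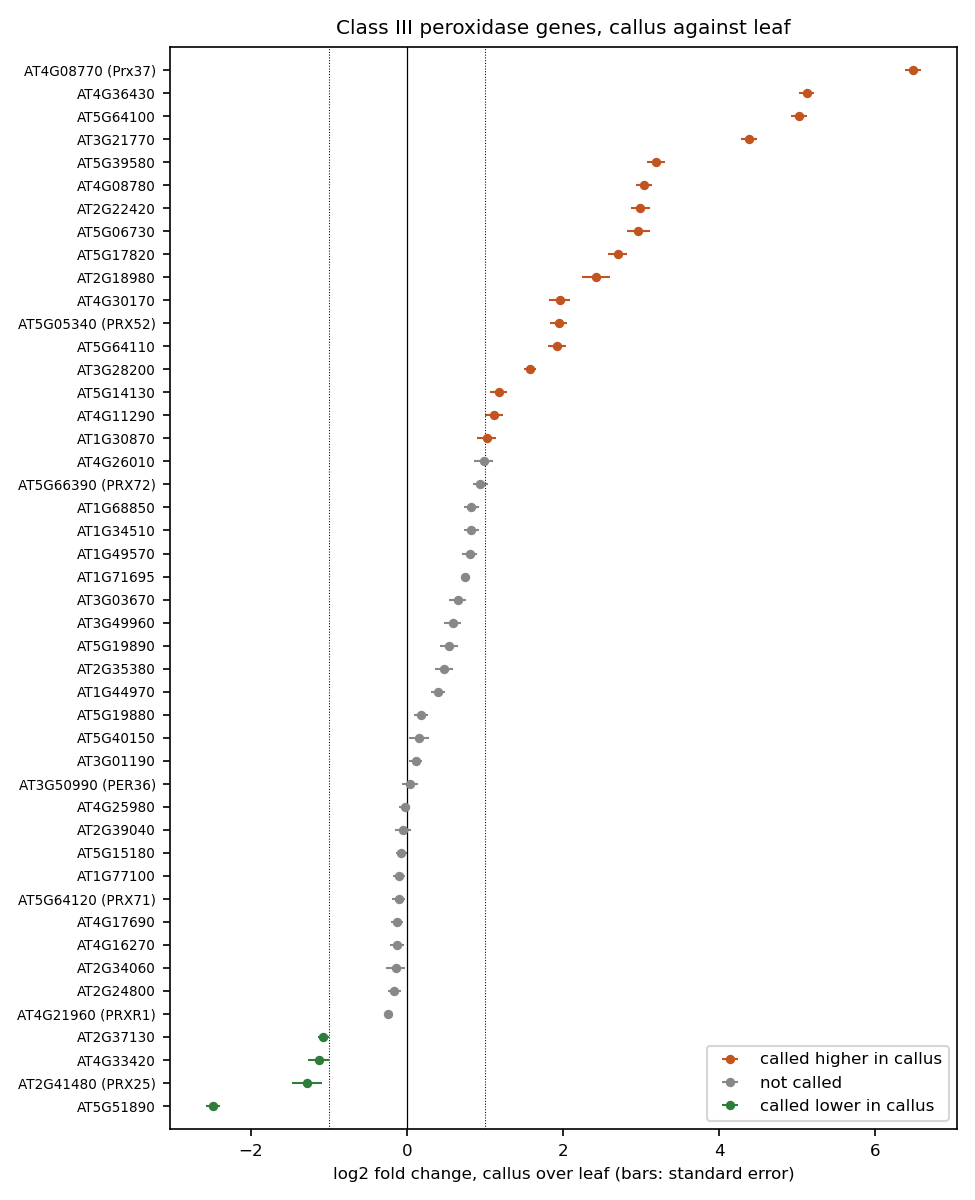
Log2 fold change (callus over leaf) of each of the 46 measured class III peroxidase genes, with the moderated standard error as bars and dotted lines at 2-fold. The 17 genes called higher reach 6.48 (AT4G08770, Prx37) and the 4 called lower reach -2.49 (AT5G51890).

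Prx37 (AT4G08770), a peroxidase whose overexpression is known to restrict growth, changed most. Its log2 expression was 10.44, 10.36 and 10.33 in callus, against 3.73, 3.83 and 4.11 in leaf. All leaf values were below the first quartile of their arrays, which lay at 4.15 to 4.23. Prx37 rose 89.6-fold, a log2 fold change of 6.48 ± 0.104 (SE, limma adjusted p = 6.00e-17). The deposited values carry no background level, so this fold, set against dim leaf signals, is not exact.

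A further 3 genes rose more than 16-fold and had leaf values above the first quartile. AT4G36430 was at 9.92, 9.95 and 10.19 in callus, against 4.81, 4.86 and 5.03 in leaf, a rise of 34.8-fold (log2 fold change 5.12 ± 0.0975, SE). AT5G64100, named PER69 and linked to root hair growth, was at 10.05, 10.02 and 10.15 in callus, against 5.15, 4.82 and 5.18 in leaf. AT3G21770 was at 9.43, 9.40 and 9.40 in callus, against 5.23, 4.93 and 4.92 in leaf, and rose 20.9-fold. In each of these genes the gap between the lowest callus array and the highest leaf array was at least 4.17 on the log2 scale, far more than the spread within a tissue.

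Another 6 genes rose between 5.35-fold and 9.09-fold. Of these, AT5G39580 was below the first quartile on 2 leaf arrays, and AT5G17820 and AT2G18980 on 1 each, so their folds are not exact. AT5G39580, also linked to root hairs and to germination, was at 7.31, 7.16 and 7.37 in callus, against 3.99, 4.22 and 4.09 in leaf. AT4G08780, the neighbour of Prx37, was at 7.23, 7.33 and 7.34 in callus, against 4.25, 4.32 and 4.23 in leaf. AT2G22420, linked to lignin, was at 8.30, 8.17 and 7.86 in callus, against 5.06, 5.0 and 5.29 in leaf. These 3 genes did not overlap between the tissues and changed by 3.18, 3.03 and 2.99 on the log2 scale. AT5G06730 was the most variable peroxidase gene in callus, with 6.88, 7.52 and 7.36 (SD 0.330), against 4.29, 4.2 and 4.38 in leaf. AT5G17820 was at 6.98, 7.18 and 6.96 in callus, against 4.43, 4.44 and 4.15 in leaf. AT2G18980, linked to germination, was at 6.69, 6.96 and 6.91 in callus, against 4.78, 3.89 and 4.63 in leaf, where leaf replicate 2 stood below the others (SD 0.473). Even so, its highest leaf array lay 1.91 below its lowest callus array.

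The remaining 7 genes that rose did so by 2.03-fold to 3.88-fold. AT4G30170 was at 5.84, 6.06 and 5.55 in callus, against 3.91, 3.93 and 3.75 in leaf. PRX52 (AT5G05340), which acts in lignin of stem fibres, was at 6.28, 6.17 and 6.21 in callus, against 4.27, 4.40 and 4.17 in leaf. AT3G28200 had a clear signal in both tissues, with 8.96, 8.88 and 8.91 in callus, against 7.43, 7.34 and 7.28 in leaf. For all 3 the groups were apart by at least 1.45 on the log2 scale. AT5G64110 rose 3.78-fold and AT5G14130 rose 2.26-fold. AT4G11290, named PER39, rose 2.16-fold, and AT1G30870, linked to root hairs, was at 5.69, 5.42 and 5.80 in callus, against 4.71, 4.58 and 4.57 in leaf, and rose 2.03-fold. AT1G30870 sat at the threshold, and leaving out callus replicate 1, callus replicate 3, leaf replicate 2 or leaf replicate 3 brought it to log2 fold changes of 0.99, 0.94, 0.998 and 0.99, each below 2-fold. Of the 17 genes that rose, 3 (Prx37, AT4G30170 and AT5G14130) were below the first quartile on all 3 leaf arrays.

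**Figure D2:**
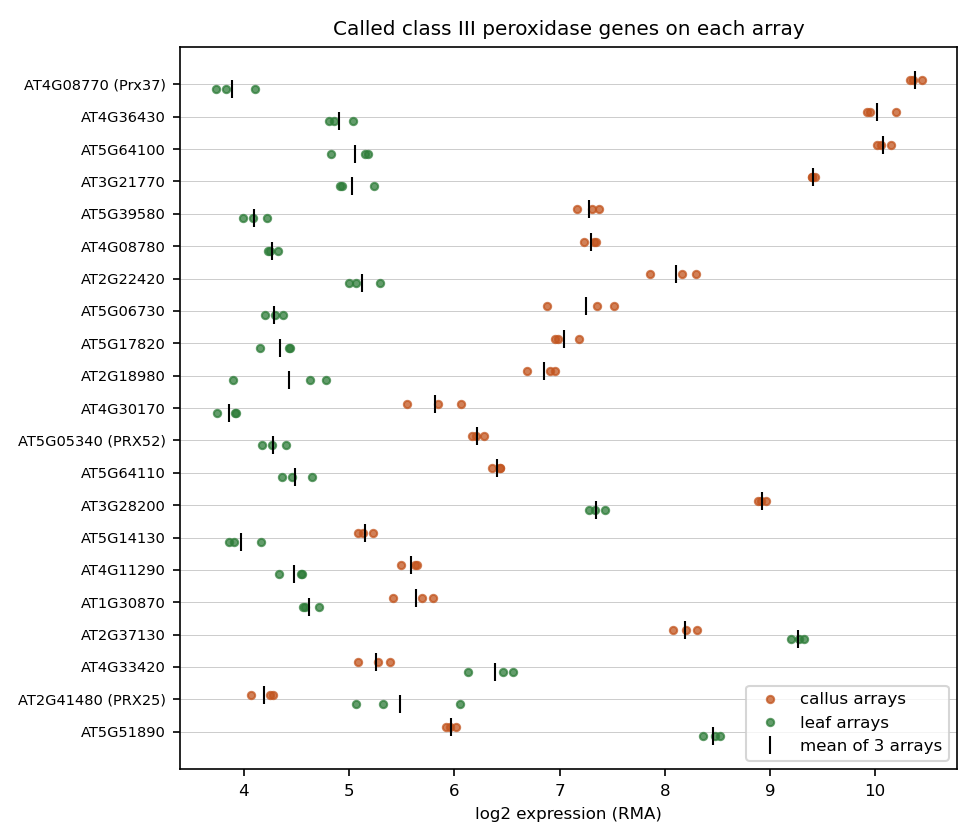
Log2 expression (RMA) on each callus array and each leaf array for the 21 called peroxidase genes, with the mean of 3 arrays as a bar. Callus arrays do not overlap leaf arrays for any of the 21, which were called on these same arrays, so this is no separate support. Of all genes tested, 66.0% do not overlap. The 4 genes at the bottom are those lower in callus.

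Only 4 genes fell, and 3 of them belong to the peroxidases linked to lignin. AT5G51890, known from vessel element formation, was at 5.92, 6.02 and 5.96 in callus, against 8.48, 8.52 and 8.36 in leaf. Its log2 fold change was -2.49 ± 0.0872 (SE, limma adjusted p = 4.83e-13), or 5.61-fold higher in leaf. AT4G33420, also known from vessel elements, was at 5.27, 5.39 and 5.09 in callus, against 6.13, 6.46 and 6.56 in leaf (-1.13 ± 0.133, SE). PRX25 (AT2G41480), which acts in lignin synthesis, was at 4.27, 4.07 and 4.24 in callus, against 5.32, 5.06 and 6.06 in leaf. Its change of -1.29 depended on the high leaf replicate 3, and without that array it was -0.998 and no longer past 2-fold. AT2G37130 was at 8.20, 8.30 and 8.08 in callus, against 9.32, 9.20 and 9.27 in leaf (-1.07 ± 0.0739, SE).

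Of the 25 genes not called, 12 had an adjusted p under 0.05 but a change below 2-fold. Of these 12, 11 (23.9% of the 46) had higher values in callus as deposited. The all-gene share for this count is not given here, so it is not read as a result about the family. Centred on AT4G34270, a TIP41-like gene used as a reference, 4 of the 11 turned negative, namely AT3G49960 (-0.0046), AT5G19890 (-0.05), AT2G35380 (-0.11) and AT1G44970 (-0.19). With no fold threshold, 28 of 46 genes (60.9%) would be higher, against 34.4% of all genes. AT4G26010, linked to root hairs, came closest to the threshold with 4.94, 4.84 and 5.32 in callus, against 4.04, 4.05 and 4.07 in leaf (0.98 ± 0.123, SE). It passed 2-fold without callus replicate 1 (1.03) or callus replicate 2 (1.07). PRX72 (AT5G66390), a peroxidase needed for normal stem lignin, was at 4.65, 4.82 and 4.88 in callus, against 3.92, 3.76 and 3.86 in leaf. It changed by 0.94 and passed 2-fold without callus replicate 1 (1.01). AT3G49960, linked to root growth, was at 4.67, 4.68 and 4.27 in callus, against 4.0, 3.92 and 3.95 in leaf. AT1G44970, linked to the anther, was at 4.27, 4.51 and 4.34 in callus, against 4.0, 3.98 and 3.96 in leaf. Both genes had all callus arrays above all leaf arrays. Together with AT1G68850, AT1G34510, AT1G49570, AT5G19890 and AT2G35380 they had log2 fold changes of 0.40 to 0.82. All of these 9 genes were below the first quartile on every leaf array, so their small changes were measured close to the lowest signals.

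The other 3 of the 12 had clearer signals. AT1G71695 was at 10.76, 10.78 and 10.72 in callus, against 10.07, 9.99 and 9.97 in leaf, an increase of 1.67-fold (adjusted p = 3.57e-09). AT3G03670 was at 5.29, 5.36 and 5.34 in callus, against 4.71, 4.71 and 4.62 in leaf. PRXR1 (AT4G21960) was the 1 gene of the 12 with a lower value in callus, at 12.49, 12.42 and 12.51, against 12.74, 12.75 and 12.66 in leaf. The difference of -0.24 ± 0.0425 (SE), a ratio of 0.844, was larger than the spread between arrays as deposited, but was 0.02 with the arrays centred on hybridization controls and 0.42 centred on poly-A controls, so its direction turned with the scaling.

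For 13 genes the adjusted p was above 0.05. Of these, 8 were below the first quartile on all 6 arrays, namely AT5G19880, AT3G01190, AT4G25980, AT5G15180, AT1G77100, AT4G17690, AT4G16270 and AT2G24800. Their log2 fold changes were -0.16 to 0.18. Values this dim cannot be told from no transcript, and a change could have gone unseen. Over all genes, 21.6% were this dim. The other 5 were AT5G40150, PER36 (AT3G50990), AT2G39040, PRX71 (AT5G64120) and AT2G34060. PRX71, known from lignin, cell growth and the oxidative burst, was at 7.65, 7.59 and 7.74 in callus, against 7.73, 7.68 and 7.91 in leaf, and the groups overlapped. Its log2 fold change was -0.11 with a 95% confidence interval of -0.30 to 0.08 by limma (adjusted p = 0.302). A change of 2-fold lay outside this interval, which holds for the values as deposited only. The log2 fold change of PRX71 was -0.70 centred on AT4G34270, 0.15 on hybridization controls and 0.55 on poly-A controls. PER36, which acts in the release of seed coat mucilage, was at 3.94, 4.07 and 4.25 in callus, against 4.10, 4.16 and 3.88 in leaf. It was below the first quartile on 2 callus arrays and all 3 leaf arrays. AT2G39040 was below it on 1 callus array and 2 leaf arrays. In these 2 genes, too, a change could have gone unseen.

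Grouped by known role, the peroxidases went in different directions. Of 7 measured genes linked to lignin (9 listed), 2 rose (AT2G22420 and PRX52), 3 fell (AT5G51890, AT4G33420 and PRX25) and 2 were not called (PRX72 and PRX71), with a median log2 fold change of -0.11. Of 5 measured genes linked to root hairs or root growth (6 listed), 3 rose, 0 fell and 2 were not called, with a median of 1.02. Of 4 measured genes linked to the seed coat or germination (5 listed), 2 rose and 2 were not called (median 1.23). The 2 genes linked to the anther, AT1G44970 and AT4G16270, were not called, and PRX71 was the 1 measured gene of 4 linked to the oxidative burst. Some genes stand on several of these lists, and none of the lists was tested against other genes. The all-gene shares of 16.4% higher and 13.2% lower apply to each of these counts.

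Peroxidase genes that are neighbours on a chromosome had log2 fold changes of unequal size. On chromosome 5, AT5G64100, AT5G64110 and PRX71 follow each other with no other protein-coding gene between them. AT5G64110 was at 6.44, 6.43 and 6.36 in callus, against 4.36, 4.46 and 4.65 in leaf. Across this cluster the log2 fold changes were 5.02, 1.92 and -0.11. The change of AT5G64100 exceeded that of AT5G64110 by 3.10, and the change of AT5G64110 exceeded that of PRX71 by 2.03. On chromosome 4, the change of Prx37 exceeded that of AT4G08780 by 3.45 as measured. Prx37 was below the first quartile on all 3 leaf arrays, so the size of this difference is not exact. In these 3 comparisons the within-array difference between the neighbours was higher on every callus array than on every leaf array (exact permutation p = 0.1, two-sided, the smallest that 3 arrays against 3 allow, adjusted p = 0.133 over 4 pairs). The dim neighbours AT5G19890 and AT5G19880, at 0.54 and 0.18, differed by 0.35 (exact permutation p = 0.3, adjusted p = 0.3). AT5G19890 was at 4.51, 4.10 and 4.55 in callus, against 3.79, 3.83 and 3.93 in leaf, and AT5G19880 was at 3.88, 3.94 and 3.80 in callus, against 3.60, 3.58 and 3.89 in leaf. Neighbouring copies can be similar in sequence, and hybridization of 1 transcript to the probes of the other was not tested.

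**Figure D3:**
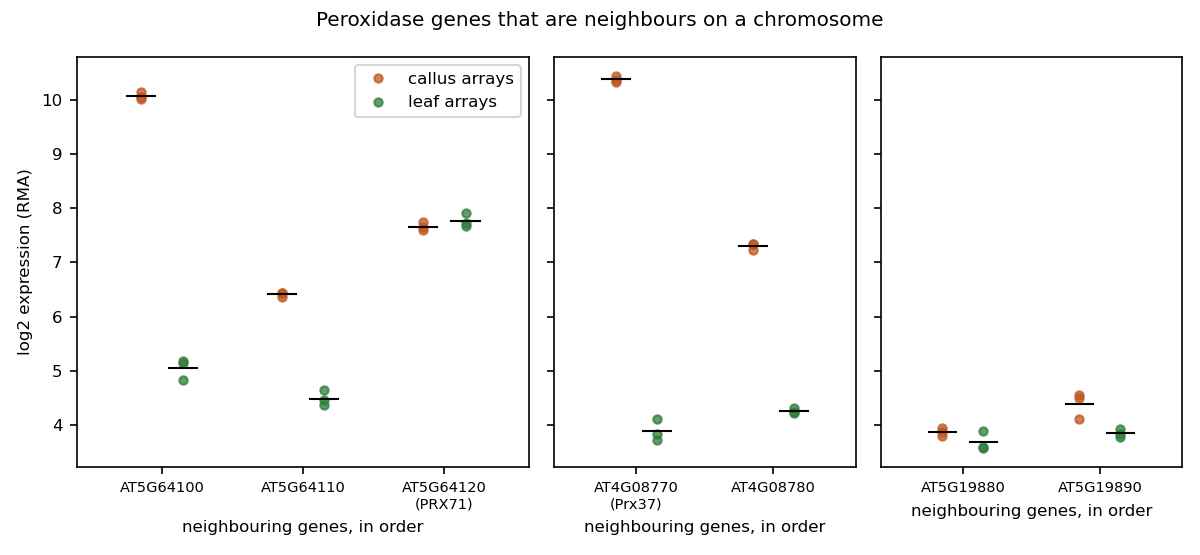
Log2 expression (RMA) of peroxidase genes that lie next to each other on chromosomes 5, 4 and 5, with callus arrays left of leaf arrays and the mean of 3 arrays as a bar. In the AT5G64100 cluster the callus and leaf arrays are far apart for the gene at the left and overlap for PRX71, and in the chromosome 4 pair both genes are apart.

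The study asked how expression relates to loss of H3K27me3, a histone mark of silenced genes, during the leaf-to-callus transition. Its separate ChIP-chip experiment lists loci with increased or decreased mark in callus. On the list of increased loci are 0 of the 46 measured peroxidase genes. On the list of decreased loci are 5 of the 46 (10.9%), against 167 of all 13356 genes tested. This difference was not tested. Of these 5, 3 rose, namely AT5G64100 (5.02), PRX52 (1.94) and PER39 (1.11). AT3G03670 and AT5G19890 had log2 fold changes of 0.65 and 0.54 and were not called. Among the 41 peroxidase genes not on the list, 14 rose and among them were Prx37, AT4G36430 and AT3G21770. Of the 433 loci on the list, only 167 were among the genes tested. Of these 167, 41.9% were higher in callus, and 16.1% of genes not on it. The list comes from the same tissues and the same study, and 5 genes are too few to compare its shares within the family.

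Transcription factors known to repress peroxidase genes moved in opposite directions. UPB1, which represses peroxidases in the root and is itself on the list of decreased H3K27me3, was at 8.75, 8.83 and 8.86 in callus, against 6.03, 6.48 and 6.20 in leaf (log2 fold change 2.57 ± 0.105, SE). AT5G47390 (KUA1), which represses peroxidases during leaf cell expansion, was at 7.73, 7.65 and 7.81 in callus, against 9.53, 9.64 and 9.76 in leaf (-1.91 ± 0.0758, SE). The groups did not overlap for either gene. Of 3 peroxidase genes described as direct targets of UPB1 in the root, AT5G17820 and PER39 were higher in callus (2.70 and 1.11). Of all genes tested, 16.4% were higher. Centred on AT4G34270, PER39 lost its call (0.52). PER39 was at 5.62, 5.64 and 5.49 in callus, against 4.55, 4.55 and 4.33 in leaf. The third, AT4G16270, was dim on all arrays, with 3.78, 3.78 and 3.80 in callus, against 4.10, 3.82 and 3.83 in leaf. No link between the factors and these genes was tested.

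Of 73 listed genes that work beside the peroxidases, only 12 had a probe set that the array annotation assigns to 1 gene, including the pair of repressors. Of 22810 probe sets, 8730 had no gene listed, so a gene missing here may still be on the array. In monolignol synthesis, CCR2, a cinnamoyl-CoA reductase, was at 8.12, 7.84 and 8.08 in callus, against 4.11, 4.09 and 4.15 in leaf, and rose 14.9-fold over a leaf signal below the first quartile. HCT of the same pathway changed by 0.75 and was not called, and the other 17 listed genes were not analysed here. The 3 measured NADPH oxidase genes, whose enzymes supply apoplastic superoxide, were not called, and 2 of the 3 were below the first quartile on all 6 arrays. The single measured laccase, LAC16, was equally dim, and the 2 measured extensin and LRX genes were not called. Of the intracellular ascorbate peroxidases, SAPX rose 2.77-fold, at 9.32, 9.36 and 9.42 in callus, against 7.81, 7.83 and 8.04 in leaf. Centred on AT4G34270, its log2 fold change was 0.89 and it lost its call. TAPX, the thylakoid form, was at 4.46, 4.44 and 4.65 in callus, against 10.14, 9.94 and 9.94 in leaf, a log2 fold change of -5.50 ± 0.0953 (SE). The groups did not overlap for either gene. No superoxide dismutase was analysed here.

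The counts of called peroxidase genes depended on how the arrays were scaled to each other. Centring on AT4G34270 shifted all log2 fold changes by -0.59, centring on the hybridization controls by 0.26 and centring on the poly-A controls by 0.66. The peroxidases then numbered 13 higher and 4 lower on the reference gene, 23 and 2 on the hybridization controls, and 28 and 1 on the poly-A controls. The background moved with them, to 9.41% higher and 20.9% lower, 20.8% and 11.3%, and 30.9% and 8.69%. Of called peroxidase genes 81.0% were higher as deposited, and 76.5%, 92.0% and 96.6% with these scalings. Of all called genes the share was 55.4% as deposited, and 31.0%, 64.9% and 78.0%. The median of the family stayed 0.69 above the median of all genes, since each scaling moves every gene alike. AT3G28200, AT5G14130, PER39 and AT1G30870 lost their calls on the reference gene (0.98, 0.59, 0.52 and 0.43). Among the genes that fell, AT2G37130 and AT4G33420 lost theirs on the hybridization controls (-0.81 and -0.87) and on the poly-A controls (-0.41 and -0.47), PRX25 on the poly-A controls (-0.63), and AT5G51890 kept its call under all 3 scalings.

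**Figure D4:**
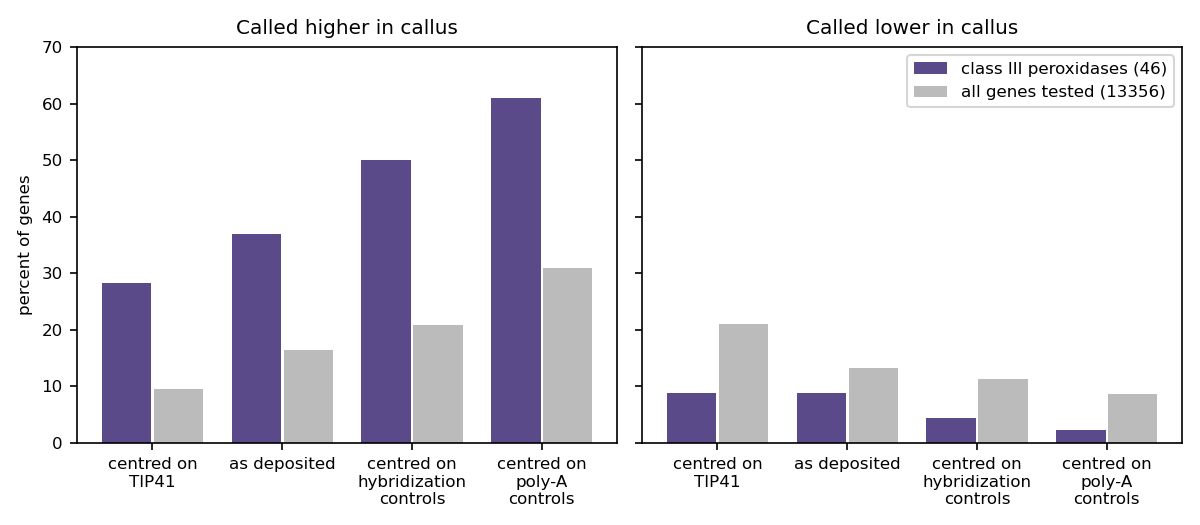
Percent of the 46 peroxidase genes and of all 13356 genes tested that were called higher (left) or lower (right) in callus, with the arrays as deposited or centred on AT4G34270 (TIP41) or on control probe sets. The share called higher runs from 28.3% to 60.9% for the peroxidases and from 9.41% to 30.9% for all genes.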

How the data were processed

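The authors deposited log2 expression values from Affymetrix arrays, 1 per probe set and array, for 3 callus and 3 leaf samples. The submitters' processing notes name RMA and Partek. RMA corrects background, normalizes arrays to the same quantiles and summarizes probes, and no version was stated in the sources used here. Such values do not show how much RNA a cell held, and the number of arrays limits the precision.

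Of 22810 probe sets, 64 were controls, 13513 had 1 gene, 503 had several and 8730 had none listed. The brightest probe set represented each gene, giving 13356 genes, with symbols from the TAIR10.1 RefSeq table. No low-value filter was applied. The contrast of callus over leaf was fitted in R 4.3.3 with limma 3.58.1, using an intensity trend in eBayes and Benjamini-Hochberg adjustment across the 13356 genes. Neighbours were compared by exact permutation. Scripts were checked on simulated data.

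The members and lists were chosen with earlier results of these data known. The role, pathway and marker lists came from general knowledge, and the H3K27me3 lists from the study. All-array values were given for the called members with the 8 largest rises and falls, for listed members and for neighbours, and for further members chosen after their values were seen. Alternatives covered thresholds, moderation, scaling, dim genes, probe set choice, the tested features, a replicate block and leaving out each array. The H3K27me3 lists were used as locus names only.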

Additional observations from a re-analysis of the deposited data

How the results depend on the processing

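Of the peroxidase genes, 17 rose and 4 fell as deposited. With no fold threshold 28 were higher (60.9%, against 34.4% of all genes) and 5 lower. The all-gene share for these 5 is not given here, so they cannot be judged against it. With a 4-fold threshold 10 were higher (21.7%, against 6.28%) and 1 lower (2.17%, against 7.16%). These settings differ by construction, through the threshold. With genes below the median signal left out, 10 of the 16 peroxidase genes kept were higher and 3 lower, with a median log2 fold change of 2.83. Of the 6678 genes kept in all, 26.2% were higher and 22.2% lower, with a median of 0.17. The filter uses the mean of all arrays, and 9 of the 16 were below the array median on every leaf array and so were kept through their callus values, which fixes these values in part. Centring on TIP41 gave 13 higher and 4 lower (against 9.41% and 20.9% of all genes). Hybridization controls gave 23 higher and 2 lower (against 20.8% and 11.3%). Poly-A controls gave 28 higher and 1 lower (against 30.9% and 8.69%). The median log2 fold change of the family, 0.70 as deposited, was 0.11 by TIP41, 0.96 with hybridization controls and 1.36 with poly-A controls. Which scaling is nearer to transcripts per cell was not tested. Of the 12 measured genes that work beside the peroxidases, 3 rose (25.0%, against 16.4% of all genes) and 2 fell (against 13.2% of all genes). The 12 include the repressors UPB1, which rose, and KUA1, which fell. Of these 12, 6 were higher at no fold threshold (against 34.4% of all genes) and on the poly-A controls (against 30.9%). On the hybridization controls 4 were higher (against 20.8%). On TIP41 (against 9.41%) and at 4-fold (against 6.28%) 2 were higher, and 1 was lower at 4-fold (against 7.16%). Leaving out each array in turn gave 16 to 18 peroxidase genes higher, 3 to 4 lower and a median of 0.67 to 0.73. No pairing by replicate number was seen, with deviations of same-numbered arrays correlated at -0.11, 0.07 and -0.04. Only 1 callus array correlated best with the leaf array of its number. Pairing is not excluded, as the labels do not say how replicates were made and each group held 3 arrays. With a replicate block, 17 were higher and 4 lower. Quantile normalization applied again gave 16 higher and 4 lower. An unadjusted p, no intensity trend, and all probe sets that are not controls each gave 17 and 4. Taking the dimmest probe set of a gene also gave 17 and 4. Each of the 46 genes had 1 probe set, so that setting could not change their values and is no check of them. Low signal limits the 8 genes below the first quartile on all arrays, and also those below it on some, like Prx37, PER36 and AT2G39040.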
